A study of Mus musculus with 2 samples.

Results

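Chromatin accessibility was examined around 10 genes for homing and adhesion receptors of blood progenitors, namely Cxcr4, Selplg, Cd44, Itga4, Itga6, Itgal, Itgam, Itgb1, Itgb2 and Cd47. The members were all accessible regions that overlapped one of these genes or lay within 50 kb of it, by the outer ends of the gene in RefSeq (mm10). They numbered 52 of the 29076 regions obtained when the peaks of both libraries were merged at 1 bp of overlap. The assay was ATAC-seq, in which a transposase cuts open DNA. There were 2 mouse libraries (C57BL/6) of fetal liver cells from embryonic day 14.5, each from 150000 cells sorted as lineage-negative and c-Kit-positive, the fraction in which fetal blood progenitors are found. The control library (replicate 1) came from CD45.2(+) Brd9fl/fl cells, and the knockout library (replicate 2) from CD45.2(+) Vav1-iCre Brd9fl/fl cells, so both carried the floxed alleles and the knockout library alone carried the Cre. Vav1 drives the Cre in blood cells, which lose floxed Brd9 sequence there. Brd9 encodes a bromodomain protein of non-canonical BAF, a chromatin remodeller. How many embryos went into a library is not stated in the labels. With 1 library per genotype there was no replicate and no test, and each difference below is one between 2 libraries.

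Blood progenitors leave the bloodstream and lodge in a niche through a chain of adhesion steps. Selectins on the vessel wall catch glycoproteins such as PSGL-1, the product of Selplg. Chemokine signalling through CXCR4, the receptor for CXCL12, then switches integrins to a state that binds firmly to VCAM-1, ICAM-1 and matrix proteins. Integrins are pairs of an alpha and a beta chain. Itga4 with Itgb1 encodes VLA-4, the receptor for VCAM-1 and fibronectin, and Itga6 with Itgb1 a laminin receptor. Itgal with Itgb2 encodes LFA-1, which binds ICAM-1, and Itgam with Itgb2 encodes Mac-1 of myeloid cells. Cd44 encodes a receptor for hyaluronan, and Cd47 a surface protein that signals to phagocytes through SIRP-alpha.

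Start sites and sequences came from a RefSeq table of GRCm38.p6, the same build as mm10. It held 6 of the 10 genes, namely Cxcr4, Itga4, Cd44, Itgam, Itgb1 and Cd47. The 250 bases before the start are printed 5' to 3' for 4 of them. Itga4 is shown because its start region differed most between the libraries among these 6 genes, Cd47 and Itgb1 because their start regions had the most reads, and Itgam because no region covered its start. Capitals mark matches to the searched motifs, given after the sequences, on the printed strand or, read in reverse complement, on the other.
Itga4, chr2:79255176-79255425, plus strand: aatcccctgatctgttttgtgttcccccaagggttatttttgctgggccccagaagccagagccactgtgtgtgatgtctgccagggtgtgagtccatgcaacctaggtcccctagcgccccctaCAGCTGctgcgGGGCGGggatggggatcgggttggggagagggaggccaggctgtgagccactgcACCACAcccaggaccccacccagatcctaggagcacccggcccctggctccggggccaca
Cd47, chr16:49855404-49855653, plus strand: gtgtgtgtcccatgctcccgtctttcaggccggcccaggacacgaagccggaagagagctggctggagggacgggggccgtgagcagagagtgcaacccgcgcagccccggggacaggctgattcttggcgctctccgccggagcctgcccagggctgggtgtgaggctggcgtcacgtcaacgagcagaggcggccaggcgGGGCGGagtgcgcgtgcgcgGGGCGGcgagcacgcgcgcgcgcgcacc
Itgb1, chr8:128685404-128685653, plus strand: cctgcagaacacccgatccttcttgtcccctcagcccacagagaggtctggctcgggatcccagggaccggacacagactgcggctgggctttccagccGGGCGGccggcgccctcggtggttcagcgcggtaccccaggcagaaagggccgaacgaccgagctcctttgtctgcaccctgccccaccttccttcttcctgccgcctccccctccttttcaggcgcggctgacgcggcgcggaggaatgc
Itgam, chr7:128062390-128062639, plus strand: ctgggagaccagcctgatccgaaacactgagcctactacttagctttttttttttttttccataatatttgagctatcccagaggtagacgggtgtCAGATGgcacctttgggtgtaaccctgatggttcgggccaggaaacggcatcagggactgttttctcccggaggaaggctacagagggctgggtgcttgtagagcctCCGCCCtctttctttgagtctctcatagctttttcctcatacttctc
All 250 bases before the Itga4, Cd47, Itgb1 and Cxcr4 starts lay under a peak in both libraries. At Cd44 the peaks covered 64 of these bases in the control and 76 in the knockout, and at Itgam they covered 0 in both. The motifs were searched on both strands, and one match may overlap another. GGGCGG, the box of Sp and KLF factors, was found at 5 of the 6 genes, all but Cd44, against 32.7% of 32851 promoter windows of the same length. CAGNTG, an E-box, was found at Itga4 and Itgam (44.8% of windows). TGTGGT, a RUNX motif, was found at Itga4 (14.0%). The motif GATAA, bound by GATA factors, was found at Cxcr4 and Cd44 (22.6%). The box named for its letters, TATAAA, was found at Cxcr4 (12.4%). The ETS motif GGAAGT, which 19.7% of windows held, was found at none of the 6 genes. The AP-1 motif TGANTCA (6.75% of windows) and the CRE motif TGACGTCA (1.55% of windows) were also found at none. A match describes letters only. GC content was 64.0% before the start of Itga4, 73.2% for Cd47, 68.0% for Itgb1 and 49.6% for Itgam, and the median window had 52.4%.

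The measurements are summit reads, the whole number of extended reads over the highest point of a peak, recovered from the deposited fold and −log10 p. Relative to the control, the depth of the knockout library was 0.640, from the lowest local backgrounds. A scaled ratio is knockout over control summit reads divided by 0.640. Its 95% interval is exact for reads counted at a fixed site and covers counting error only. The reads of each library were taken at its own summit, and only in regions with a peak in both lists. The interval does not allow for this selection. A region was called past the fold when its scaled ratio was at least 1.5 or at most 1/1.5. The control list held 25330 peaks and the knockout list 22348. Each merged region near the 10 genes contained at most 1 peak of a list. Of 8 blood progenitor markers, 6 had a region at a gene end in both lists, Kit (109 and 65 reads) among them. Cd34 and Gata2 had one in neither list. Gene ends here are within 1 kb of the outer ends of a gene in RefSeq, so a region at a start further inside was not counted. A marker without a gene-end region may thus still have an open start. Of all coding genes, 47.6% had a gene-end region in both lists. Of 5 genes each, macrophage, hepatocyte and endothelial markers had 1 with a gene-end peak in both lists. The hepatocyte one was Apoa1 (26 and 19 reads), while Alb, Afp, Ttr and Hnf4a had none. Erythroid markers had 3 of 6 in both lists and 2 in neither. Slc4a1, the red cell anion exchanger, had a control-only peak of 62 reads. The macrophage marker in both lists was Mertk, with 12 and 21 reads (ratio 2.73, 1.28 to 6.09). Ratios of the 6 progenitor markers ran from 0.768 at Runx1 to 1.98 (1.19 to 3.31) at Spi1, whose interval was the one of these 6 that left out 1. Of the erythroid markers, Epor had a ratio of 0.834 (0.698 to 0.994) and Klf1 one of 0.939, with an interval that included 1. The part of cell make-up in the results was not tested. The Brd9 gene-end region had 217 and 151 reads (ratio 1.09, 0.877 to 1.34), but where the floxed sequence lies is unknown here, so it checks neither label. The Y-linked gene Ddx3y was represented by a knockout peak of 33 reads and no control peak, and a region at Xist had 86 and 33 reads (ratio 0.599, 0.388 to 0.905). Differences in sex and in genotype between the libraries therefore cannot be told apart. In sorted bulk cells, fewer cells with an open site and less opening per cell cannot be told apart either. Of 5 stromal markers 1 was in both lists, and of 5 T and B cell markers 0.

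Of the 52 regions, 39 were shared by both lists, 9 were control-only and 4 knockout-only. The control-only share was 17.3% (exact Clopper-Pearson interval 8.23 to 30.3) and the knockout-only share 7.69% (2.14 to 18.5). Over all regions these shares were 23.4% and 13.0%, inside the intervals of the 10 genes. The knockout-only share was not stable. It was 15.4% (4 of 26 regions) within 10 kb, and 13.3% with peaks of a −log10 q of at least 5, where that over all regions was 8.19%, so the order of the members and all regions turned. Only Itgam had no region in both lists, whereas all regions of Cxcr4 (3), Itgal (7) and Itgb1 (4) were. By place, 7 regions lay at an end of a listed gene (within 1 kb), 14 inside one, 11 outside but at an end of another coding gene, and 20 outside otherwise. Exons and introns were not analysed here. All 7 regions at an end of a listed gene were in both lists (exact interval 59.0 to 100%). Of all regions at a gene end, 82.5% were shared, inside that interval. The 9 control-only regions were all away from gene ends of any kind, where they made up 9 of 30 member regions, and the share over all regions away from gene ends was 33.1%.

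**Figure D1:**
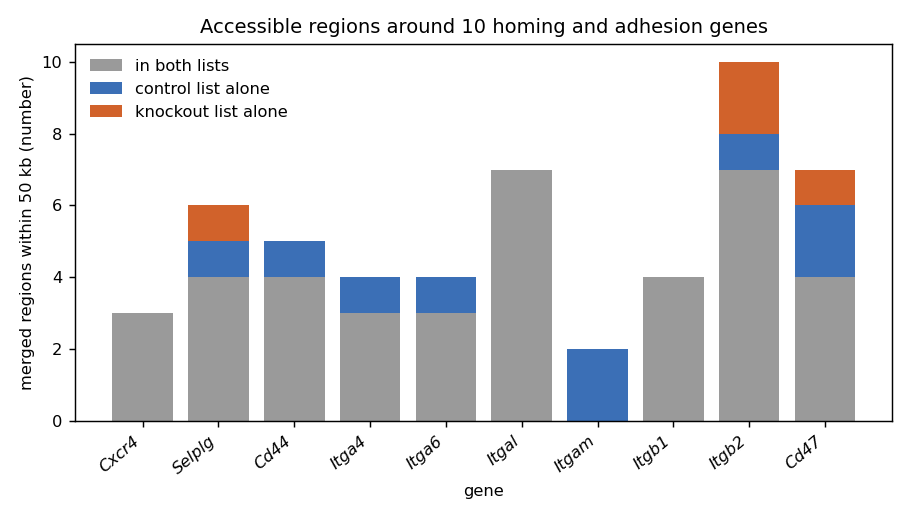
Number of merged regions within 50 kb of each listed gene (vertical axis), split by whether a region was shared, control-only or knockout-only. Itgb2 has the most regions, 10, and Itgam has 2, both from the control list.

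Over the 39 regions in both lists, the median log2 scaled ratio was −0.06 (SD 0.59), with 17 above and 22 below 0. Over all 18481 regions in both lists it was 0.00 (SD 0.46). Of the 39 regions, 3 were at least 1.5 times higher in the knockout and 5 at most 1/1.5 times, where the shares over all shared regions were 9.09% and 9.51%. Intervals above 1 were found at 4 regions, near Cxcr4 and Itgal, and intervals below 1 at 5, at Itga4, Cd44 and near Itgb2, where the shares over all shared regions were 7.41% and 8.47%. The counts of members are thus near these shares. Of the 7 regions at an end of a listed gene, 1 (Itgal) had an interval above 1 and 1 (Itga4) one below 1, beside 8.85% and 7.47% of all shared gene-end regions. By summed reads of both libraries, 12 members had at most 40 reads, 12 had 41 to 100 and 15 had more than 100. Of the weakest 12, 2 had an interval above 1 and 0 one below, beside 4.95% and 0.328% of shared regions of that depth. Of the middle 12, 1 lay above and 1 below, beside 5.7% and 7.53%. Of the strongest 15, 1 lay above and 4 below, beside 9.47% and 12.3%.

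**Figure D2:**
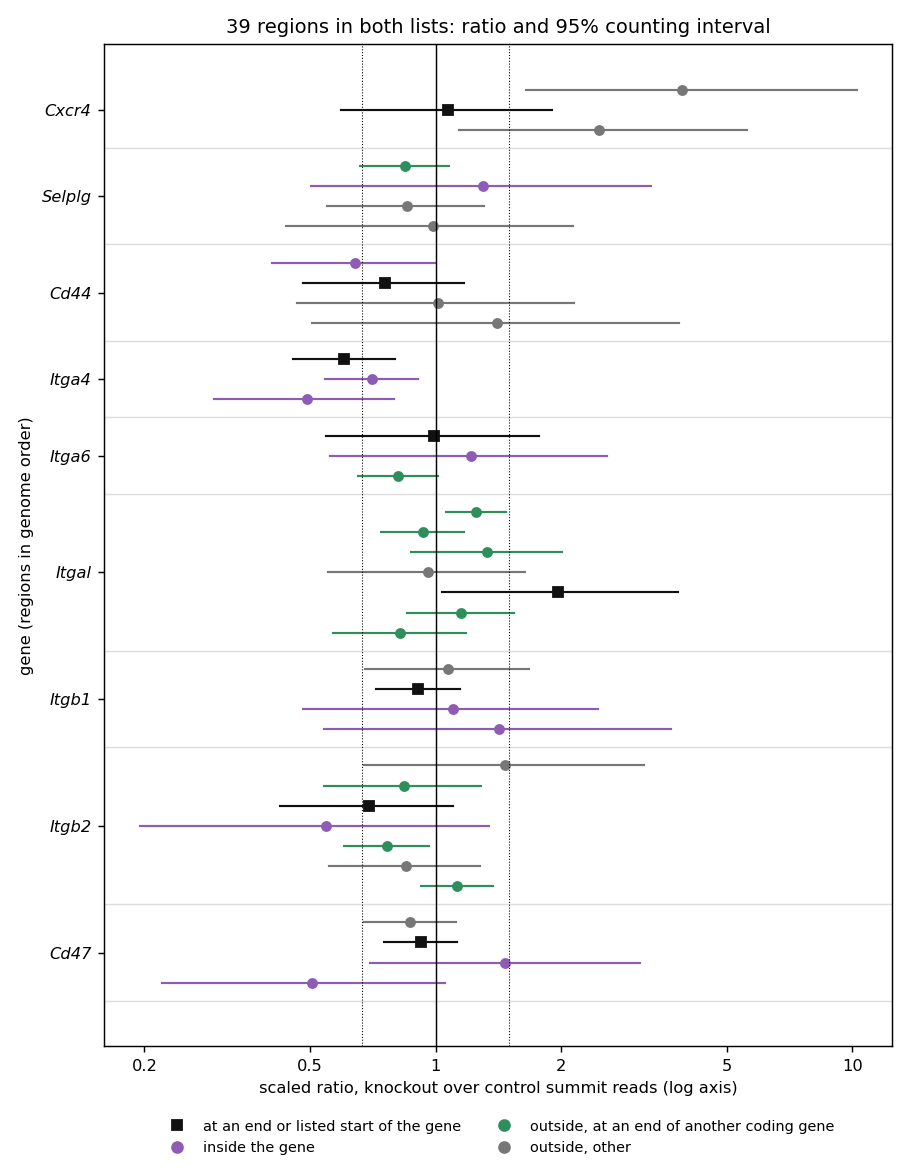
Scaled ratio of knockout over control summit reads (log axis, points) with 95% counting intervals (lines) for the 39 regions in both lists, grouped by gene with regions in genome order, squares marking regions at an end or listed start and colours the place. The solid line marks 1 and the dotted lines 1/1.5 and 1.5. All 3 Itga4 intervals lie below 1, and the Cxcr4 flanking regions lie to the right.

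Cxcr4 encodes the CXCL12 receptor that holds progenitors in their niche. Its start region (chromosome 1, 128591679 to 128593085) had 32 control and 22 knockout summit reads, a scaled ratio of 1.07 (0.594 to 1.91). This was a modest peak. Only 15.9% of all shared gene-end regions had fewer control reads. The flanks of the gene differed more. A region 17289 bp beyond the 3' end (128570017 to 128570910) had 8 control and 20 knockout reads, a ratio of 3.90 (1.65 to 10.2). A region 22171 bp before the start (128614470 to 128615557) had 12 and 19 reads, a ratio of 2.47 (1.14 to 5.59).
Both flanks thus had intervals above 1, while the interval at the start included 1. Both flanking peaks were weak, and weak shared peaks leaned the same way across the genome. Of shared regions with at most 40 reads in both libraries together, 24.2% had a ratio of at least 1.5 and 7.27% one of at most 1/1.5. At the region beyond the 3' end the summits of the 2 libraries lay 276 bp apart and the peaks shared only 118 bp, and at the region before the start the summits lay 266 bp apart, against a median of 51.0 bp over all shared regions. When shared was taken to mean an overlap of 0.5 of the shorter peak, only 1 Cxcr4 region stayed past 1.5. Of coding genes with exactly 3 shared regions within 50 kb, 14.2% had all 3 ratios above 1, and of those with 3 or more, 7.21% had all ratios above 1 and 4.93% at least 2 ratios past 1.5.

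Selplg encodes PSGL-1, which selectins bind. No region lay within 1 kb of either end of the gene. A weak region inside Selplg (chromosome 5, 113830322 to 113831030) had 12 control and 10 knockout reads, a ratio of 1.3 (0.504 to 3.29). It lay within 2.5 kb of the outer end of the gene at 113832528. With that wider distance, 8 of the 10 listed genes had a gene-end region in both lists, against 7 within 1 kb. Strong signal in the window belonged to neighbours. The region shared by Iscu and Sart3 had 194 and 105 reads (ratio 0.845, 0.660 to 1.08), and one inside Coro1c had 64 and 35 reads (0.854, 0.549 to 1.31). A region 4949 bp from Selplg appeared only in the control, with 12 reads (6.20 to 21.0), and one at an end of Coro1c in the knockout list alone, with 16 reads (9.15 to 26.0). None of the 4 shared regions of the Selplg window had an interval that left out 1.

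Cd44 encodes the hyaluronan receptor. Its start region (chromosome 2, 102900422 to 102901741) had 66 control and 32 knockout reads, a ratio of 0.757 (0.480 to 1.17). A region inside the gene, 33730 bp from the start (102867451 to 102867935), had 73 and 30 reads, a ratio of 0.642 (0.405 to 0.994). The interval of the region inside the gene barely left out 1, and that of the start included it. A region 12603 bp upstream (102914272 to 102914781) appeared only in the control, with 30 reads (20.2 to 42.8). At equal accessibility 19.2 reads would stand there at the depth of the knockout library, whose peaks had at least 8 reads in 95% of cases. The control peak was 510 bp wide and the narrowest listed peak 376 bp. Absence from the knockout list places the site below the calling limit and does not show that it was closed. Further upstream, regions 42179 and 46571 bp away had 20 and 13 reads and 10 and 9 reads, with intervals that included 1.

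Itga4, the alpha chain of VLA-4, was the one gene of the 10 whose shared regions, 3 in number, all had intervals below 1. The start region (chromosome 2, 79254734 to 79255878), over the sequence printed above, had 186 control and 72 knockout reads, a ratio of 0.605 (0.454 to 0.798). A region 3758 bp inside the gene (79259184 to 79260087) had 202 and 91 reads, a ratio of 0.704 (0.543 to 0.905), and it was higher than the start region in both libraries.
A region 14458 bp inside the gene (79269884 to 79270779) had 73 and 23 reads, a ratio of 0.492 (0.294 to 0.796). Summits of the 2 libraries lay 7 to 75 bp apart in these 3 regions, and the peaks overlapped by at least 494 bp. The other region in the window, 10460 bp before the start, appeared only in the control, with 13 reads (6.92 to 22.2).
Within 100 kb Itga4 had 4 shared regions, of which 3 had an interval below 1, so the statement on all its regions holds for 50 kb and not for 100 kb.
Among 9392 coding genes with 3 or more shared regions within 50 kb, 3 (0.0319%) had all their intervals below 1, namely Itga4, Aptx and Zcchc7. Intervals all above 1 were found at 7 (0.0745%). Among genes with exactly 3 shared regions, the share with all intervals below 1 was 0.110%. These counts were made after the Itga4 values had been seen, and without replicates they do not separate genotype from other differences between the 2 libraries. Of shared regions with more than 100 reads in both libraries together, 12.3% had an interval below 1 while 6.36% had a ratio of at most 1/1.5 and 1.81% one of at least 1.5.

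**Figure D3:**
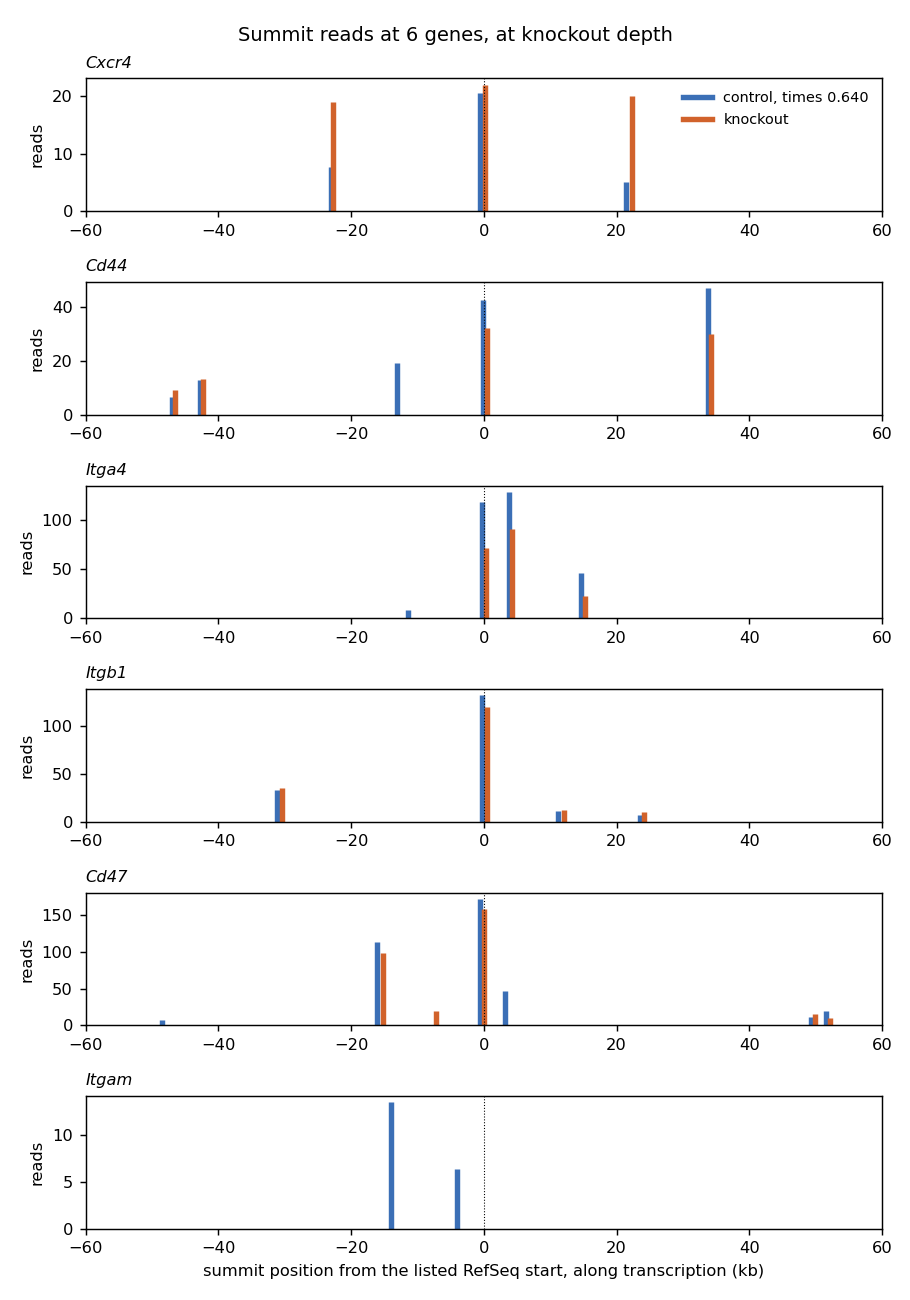
Summit reads (vertical axis) against the distance of the summit from the RefSeq start along transcription (kb) for the 6 genes with a known start, with control reads multiplied by 0.640 and the bars of the 2 libraries drawn slightly apart. At Itga4 the knockout bars are shorter at all 3 shared sites, at Cxcr4 they are taller at both flanks, and at Itgb1 and Cd47 the start bars are close to level.

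At the other alpha chains no shared region had an interval below 1, but Itgam had no shared region and so no interval. Itga6, a laminin receptor chain long used as a progenitor marker, had an end region (chromosome 2, 71786235 to 71787735) with 33 control and 21 knockout reads, a ratio of 0.994 (0.546 to 1.77). A region inside Itga6 had 18 and 14 reads (1.21, 0.559 to 2.58), and a second, with 8 reads (3.45 to 15.8), was in the control list alone. The strongest region of its window, with 244 and 127 reads (0.813, 0.651 to 1.01), lay at an end of Pdk1, a kinase gene of glucose metabolism. All shared Itga6 intervals included 1.

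Itgal encodes the alpha chain of LFA-1. Its end region (chromosome 7, 127295960 to 127296726) had 19 control and 24 knockout reads, a ratio of 1.97 (1.04 to 3.81). It was the only gene-end region of a listed gene past 1.5, beside 6.16% of all shared gene-end regions, and a weak one, since 6.32% of shared gene-end regions had fewer control reads. The other 6 regions of the window lay outside the gene, 5 of them at ends of the coding genes Zfp771, Dctpp1, Sephs2, Zfp768 and Zfp747. Their ratios ran from 0.824 at Zfp747 to 1.33 at Sephs2, and the one at Zfp771 (328 and 263 reads; 1.25, 1.06 to 1.48) had an interval above 1.

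Itgam encodes CD11b, the alpha chain of Mac-1 and itself a lineage marker of mature myeloid cells. Neither list had a region at an end of the gene or inside it. The only regions within 50 kb were 2 of the control list, one 13207 bp before the gene (chromosome 7, 128048901 to 128049433) with 21 reads (13.0 to 32.1) and one 3403 bp before it (128058688 to 128059237) with 10 reads (4.80 to 18.4). At knockout depth and equal accessibility these would be 13.4 and 6.40 reads. In the knockout list 95% of peaks had at least 8 reads, and the lowest had 6. The nearer site would thus lie below the first level and above the second. Of 17107 coding genes with a region within 50 kb, 2.97% had control-only regions alone.

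Itgb1 encodes the beta chain that pairs with both Itga4 and Itga6. Its start region (chromosome 8, 128685323 to 128686376) had 206 control and 120 knockout reads, a ratio of 0.910 (0.720 to 1.14). A region 30570 bp before the start had 51 and 35 reads (1.07, 0.676 to 1.68). Regions 11147 and 23418 bp inside the gene had 17 and 12 reads (1.10, 0.480 to 2.45) and 11 and 10 reads (1.42, 0.541 to 3.68). All 4 intervals of Itgb1 included 1, so its regions were not distinguishable between the libraries at this depth, while the start region of its partner Itga4, at 186 and 72 reads, was lower. The interval of the Itgb1 start region, from 0.720, overlaps that of Itga4, up to 0.798, and the difference between them was not tested.

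Itgb2 encodes CD18, the beta chain of LFA-1 and Mac-1. Its end region (chromosome 10, 77531085 to 77532162) had 61 control and 27 knockout reads, a ratio of 0.691 (0.422 to 1.10). A region inside the gene (77560994 to 77561803) had 20 and 7 reads, a ratio of 0.547 (0.195 to 1.35), and another, with 8 reads (3.45 to 15.8), was in the knockout list alone. Both shared regions of the gene itself were below 1 with intervals that included it. In the window, the region at an end of Pttg1ip had 223 and 109 reads (0.763, 0.601 to 0.964), that at Sumo3 243 and 175 reads (1.12, 0.921 to 1.37) and that at Fam207a 65 and 35 reads (0.841, 0.541 to 1.29). A region 45305 bp away had 16 and 15 reads (1.46, 0.674 to 3.16). A region with 15 reads (8.40 to 24.7) was in the control list alone and one with 12 reads (6.20 to 21.0) in the knockout list alone.

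Cd47 encodes the SIRP-alpha ligand. Its RefSeq span begins before the listed start, so the start region (chromosome 16, 49854968 to 49856209) counts as inside the gene. It was the strongest of all regions at a start of the 6 genes, with 269 control and 159 knockout reads and a ratio of 0.923 (0.754 to 1.13). A region 15109 bp before the start, overlapping Gm4633, had 178 and 99 reads (0.869, 0.672 to 1.12).
Near the far end of the gene, a region at 49906935 to 49907664 had 31 control and 10 knockout reads, a ratio of 0.504 (0.220 to 1.05), and one at 49904966 to 49905686 had 17 and 16 reads (1.47, 0.695 to 3.09). These neighbouring sites, both with intervals that included 1, pointed in opposite directions.
A region 3466 bp after the start (49859127 to 49859617) appeared only in the control, with 73 reads (57.2 to 91.8), the most of the 13 one-list regions. Its local background was 26.3 reads, and its −log10 q of 11.2 stood at percentile 33.9 of the control list. A region 7298 bp before the start (49847820 to 49848356) was in the knockout list alone with 19 reads (11.4 to 29.7), equal to 29.7 at control depth. A region 43559 bp before the gene with 11 reads (5.49 to 19.7) was in the control list alone.

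**Figure D4:**
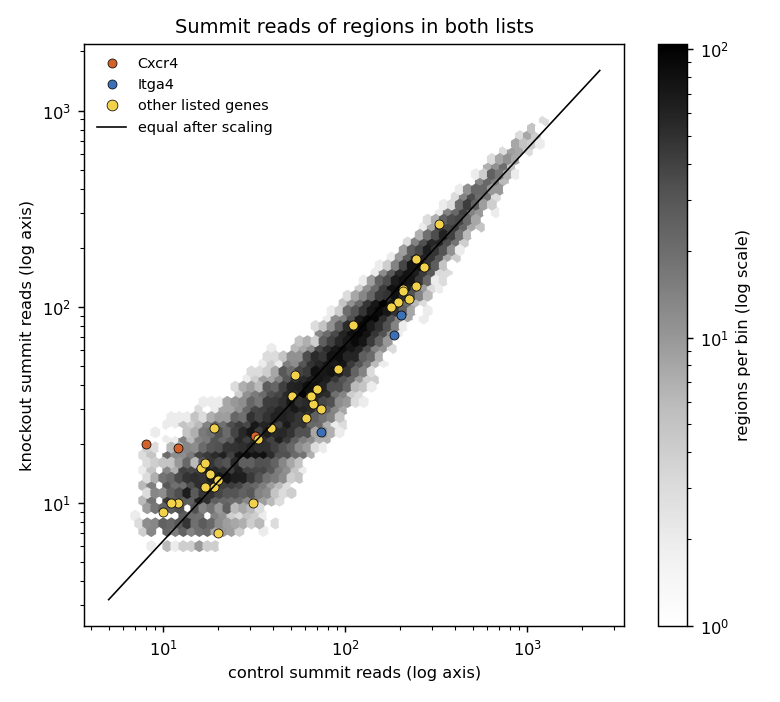
Knockout against control summit reads (both log axes) for all 18481 regions in both lists (grey, darker where more regions fall) and for the 39 regions of the listed genes (points), with a line where the scaled ratio is 1. The Itga4 points lie below the line at 73 to 202 control reads, and 2 Cxcr4 points lie above it at 8 and 12 control reads.

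The other genes of adhesion and homing were read at their gene ends from 6 lists with 88 genes. A gene-end peak was in both lists at 39 genes, in the control list only at 4, in the knockout list only at 3 and in neither at 42. The shares over all coding genes were 47.6%, 3.42%, 1.79% and 47.2%. A start further inside a gene was not counted as a gene end. At 38 of the 39 the peaks of the lists formed a shared region with a ratio, all but Fut7. Of these 38 genes, whose median log2 ratio was 0.03, 1 was past 1.5 with an interval above 1 and 2 (Apbb1ip and Cx3cr1) were at most 1/1.5. Intervals below 1 were found at 2, Apbb1ip and Cd151. Of all shared gene-end regions, 6.16% had a ratio of at least 1.5 and 5.57% one of at most 1/1.5. Intervals above 1 and below 1 were found at 8.85% and 7.47% of them.
Apbb1ip, which encodes RIAM, the adaptor that links Rap1 to talin in integrin activation, had 58 control and 13 knockout reads (chromosome 2, 22755484 to 22756227), a ratio of 0.350 (0.176 to 0.646). The 13 other integrin adaptors and activators with a ratio, such as talin (Tln1, 395 and 236 reads; 0.933, 0.791 to 1.10), kindlin-3 (Fermt3, 146 and 78; 0.834, 0.625 to 1.11) and Rap1b (146 and 94; 1.01, 0.767 to 1.31), had intervals that included 1.
Among other integrin chains, which mostly lacked a gene-end region, Itgb3, the platelet and progenitor beta chain, had 15 and 28 reads (2.92, 1.5 to 5.87), and Itga2b, its partner, had a knockout peak of 36 reads and no control peak. Of the homing receptors, Ackr3, another receptor for CXCL12, had a knockout peak of 15 reads at a gene end and no control peak, and S1pr1, the sphingosine phosphate receptor used to leave tissues, had 119 and 76 reads (0.997, 0.738 to 1.34). None of the 6 ligand and counter-receptor genes with a ratio had an interval that left out 1, and Icam1 and Icam4 shared 1 region with 193 and 118 reads (0.955, 0.753 to 1.21).
In the list of other adhesion and selectin-ligand genes, Jam3 had a peak of 17 reads in the control list alone. Fut7, the fucosyltransferase that finishes selectin ligands, had a control peak of 28 reads and a knockout peak at another place. Cd151, a tetraspanin, had 157 and 74 reads (0.736, 0.551 to 0.976).

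**Figure D5:**
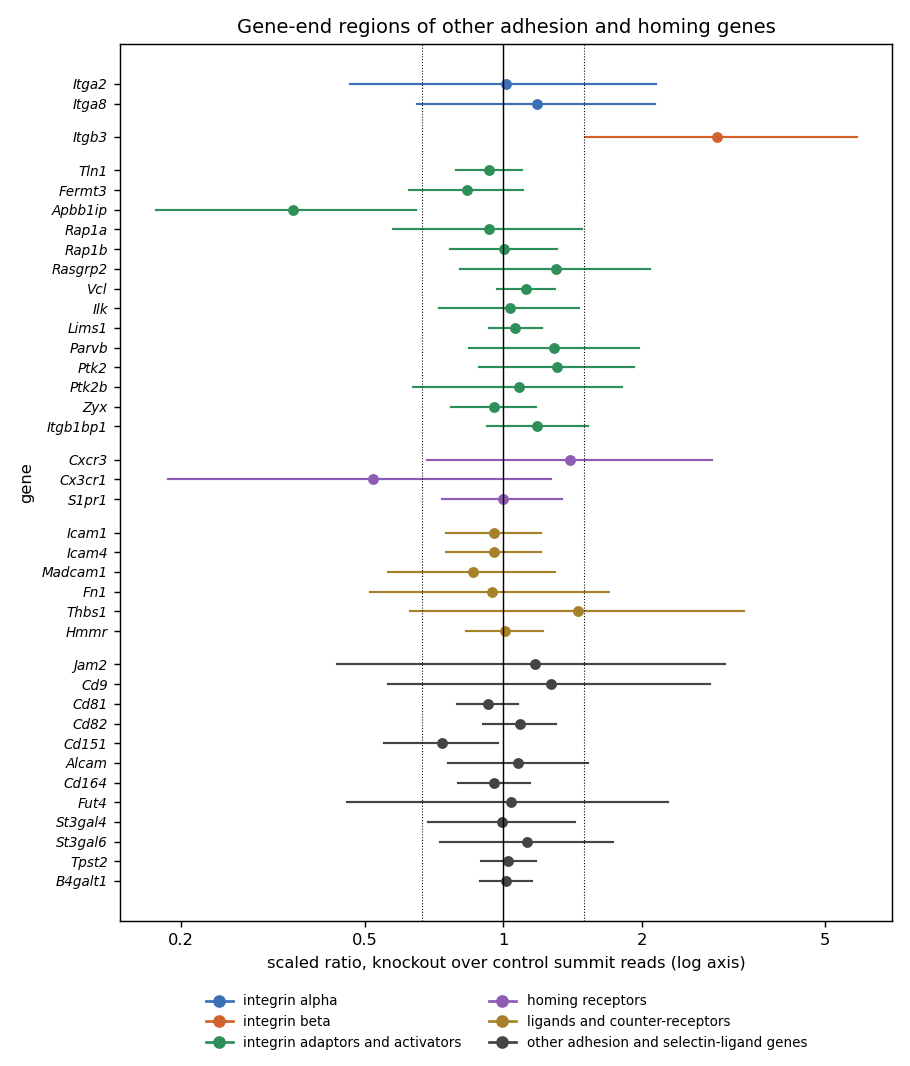
Scaled ratio of knockout over control summit reads (log axis, points) with 95% counting intervals (lines) at the gene-end region of 38 other adhesion and homing genes, by list. Apbb1ip and Cx3cr1 lie left of the dotted line at 1/1.5 and Itgb3 right of that at 1.5, and most of the others lie near 1.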

How the data were processed

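Peaks were deposited as 1 list per library, so they were called per sample. Trimmomatic 0.39, Bowtie2 2.4.4, Picard 2.26.2, deepTools 3.5.1, MACS2 2.2.7.1 and build mm10 are named without roles or settings, per the submitters' processing notes. Read shifting, duplicate handling and blacklists were not stated in any label or header. The score the authors deposited lies within 1.0 of 10 times the −log10 q and was not used. The deposited fold is the ratio of pileup to local background, each with a pseudocount of 1, and the deposited −log10 p and −log10 q are the authors' values for each peak.

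A whole-number pileup that gave both the fold and the −log10 p, to a relative misfit under 0.0001, was found for 100.0% of peaks in both lists. On 2000 simulated peaks per list it returned the true number for 100.0%. The simulation used the formulas of the recovery, so it checks the inversion and not whether those formulas hold for the deposited peaks. The lowest backgrounds, 1.52 and 0.971 reads, gave the relative depth of 0.640. Absolute depth is unknown. Peaks with more than 3000 reads were left out of ratios. Intervals are 95% and exact (Clopper-Pearson for shares, Poisson for reads, conditional binomial for ratios), and cover counting error only, as PCR copies are not independent molecules. They do not allow for the choice of summits or for the calling of peaks.

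Gene spans came from RefSeq (GRCm38.p6). Gene ends are within 1 kb of either end. The members and lists were chosen with earlier results of these data known. Named were all 10 genes, their gene-end regions, the strongest shared region away from an end, regions past 1.5-fold, and the top one-list regions. Of the other lists, genes past 1.5-fold with an interval that left out 1, or with a one-list gene-end peak of at least 15 reads, were named, and Cd151, Cx3cr1, Tln1, Fermt3, Rap1b, S1pr1, Icam1 and Icam4 were added after their values were seen. Alternatives covered window, −log10 q, peak number, overlap, depth scaling and gene-end distance. Computation used SciPy 1.17.1 and NumPy 2.4.6, tables pandas 2.3.3 and figures matplotlib 3.10.9, all under Python 3.11.15. The value of 1 erythroid marker is not reported here.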

Additional observations from a re-analysis of the deposited data

How the results depend on the processing

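Itga4 had 3 shared regions with intervals below 1 under all 8 alternatives run for that count, but within 100 kb it had 4 shared regions, and 1 of them had no such interval. Most of these alternatives could hardly change the count. The 3 regions overlap the gene, so every window keeps them, and depth scaling moved ratios little. The −log10 q, peak-number and overlap settings could drop one of these regions but not change its ratio. The median log2 ratio of shared regions stayed below 0, between −0.24 with the 11174 peaks of highest −log10 q from each list and −0.05 with ratios scaled to their overall median. Depth scaling by the median ratio (0.638) or by summed reads (0.641) moved all log2 ratios by 0.0046 or less in size. With the 11174 top peaks per list, 23 regions were left, the control-only share was 4.35% (9.40% over all regions, against 23.4% with all peaks), gene ends in both lists fell to 3 genes, no region (0) had a ratio of at least 1.5, 3 had at most 1/1.5, and Cxcr4 had 0 regions past 1.5. Regions past 1.5 numbered 1 within 10 kb and 7 within 100 kb. These windows held 26 and 84 regions, one-list regions without a ratio included. Of all shared regions, 9.09% had a ratio of at least 1.5. With peaks of a −log10 q of at least 5, 45 regions were left and 3 had a ratio of at most 1/1.5. Ratio shares over all shared regions were not computed for the −log10 q and top-peak settings. Cxcr4 regions past 1.5 numbered 0 within 10 kb, 1 at a −log10 q of at least 5 and 1 with an overlap of 0.5 of the shorter peak. The window and the number of peaks set how many regions enter these counts. The alternatives for counts of regions past the fold or with intervals below 1, the equal-number, overlap and summed-peak settings of the median, and the overlap setting of the gene-end count were chosen after seeing the data. The summed-peak setting could change no ratio, since no region held more than 1 peak of a list. Of the 30 counts by gene and class, 28 stayed within 1.5 times with the stricter overlap and 13 with equal peak numbers. No paired analysis was possible because each genotype had 1 library. At equal accessibility a control peak of 8 reads would stand at 5.12 reads in the knockout library. In that library 95% of peaks had at least 8 reads, and the lowest had 6. The part of depth in the one-list regions was not tested.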
